A study of Mus musculus with 6 samples.

Results

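Expression of 10 dendritic cell genes was examined in orthotopic HCA-1 tumors, and they were taken by gene symbol from the 55536 genes with deposited counts. They comprised 6 genes grouped here under type 1 conventional dendritic cells (cDC1), namely Xcr1, Clec9a, Batf3, Flt3, Irf8 and Itgae. Not all of these are particular to cDC1. The others were Cd209a for type 2 conventional dendritic cells (cDC2), Siglech for plasmacytoid dendritic cells, and Ccr7 and Fscn1 for mature, migratory dendritic cells. All 10 were among the 15374 genes that passed a filter on low counts. The rule itself uses gene names and no measured value, although results of these data were known when the genes were listed.

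HCA-1 is a murine hepatocellular carcinoma line, and it was implanted under the liver capsule of male C3H mice (C3H/HeNCrNarl in the study's methods) aged 6 to 8 weeks, which keep their own immune system. Bulk RNA was sequenced from 3 untreated control tumors (numbered 5, 6 and 7) and from 3 tumors (numbered 1, 2 and 5) of mice that received GOx-DOX-LGP intravenously on days 18, 19 and 20. GOx-DOX-LGP is a lipid-gelatin-protamine nanogel that carries glucose oxidase and doxorubicin, so the 2 agents and the carrier were given together and cannot be told apart, and no group received an empty nanogel. The labels place the transcriptome on day 17 after a circulation of 3 h, which precedes the first dosing day they give, and this conflict could not be resolved from the labels. The study's methods give the same dosing days and a harvest after the last dose, in their paragraph on RT-qPCR of such tumors, but give no day for the sequenced ones. They do not state that each library came from a different mouse, and p-values measure only the spread between these libraries.

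Dendritic cells take up antigen, carry it to lymph nodes and present it to T cells. The cDC1 subset depends on the transcription factors Irf8 and Batf3, takes up material from dead cells through Clec9a, and is known in tumors for priming CD8+ T cells, which it meets through Xcr1 and its T cell and natural killer cell ligand Xcl1. On maturation, dendritic cells gain the chemokine receptor Ccr7, which responds to Ccl19 and Ccl21a, and the actin-bundling protein Fscn1, which shapes their dendrites.

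Libraries held between 15529940 and 18401178 counts, and the 10 genes had between 3 and 1472 counts in a library. Control 5 stood apart from controls 6 and 7. Alb, the hepatocyte gene for serum albumin, was at 353 CPM (read counts scaled to library size, with TMM factors) in control 5 but at 73804 CPM in control 6 and 128244 CPM in control 7, and it was at 1893, 733 and 1061 CPM in the treated tumors 1, 2 and 5. The 20 hepatocyte markers had a mean log2 CPM of 3.73 in control 5, 11.74 and 12.41 in controls 6 and 7, and 4.97 to 6.39 in the treated tumors, and none of the 20 was at 0 in any library. Across the 15374 genes, which are not independent replicates, log2 CPM in control 5 correlated with that in the treated libraries at r = 0.966 to 0.975 and with that in the other controls at 0.730 and 0.659. Fitted changes, overlap between the groups and levels relative to leukocyte genes are therefore also given without control 5. Beyond these and a fit with the hepatocyte level as a covariate, the part of hepatocyte RNA in the results was not tested.

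None of the 10 genes had an adjusted p under 0.05 between the groups (edgeR's quasi-likelihood test with Benjamini-Hochberg adjustment over all genes kept), and the share among all 15374 genes was also 0%. An unadjusted p under 0.05 was reached by 0 of the 10, compared with 17.5% of all genes (2.87% higher and 14.6% lower in treated tumors). With DESeq2, 1 of the 10 had an unadjusted p under 0.05 (Fscn1), as did 22.6% of the genes it tested, and 0 of the 10 had an adjusted p under 0.05, against 10.5% of the genes for which DESeq2 gave one. In limma voom with library quality weights, 4 of the 10 had an adjusted p under 0.05, but so did 60.2% of all genes. Fitted changes were positive for 8 of the 10, with a median log2 fold change of 0.33 against 0.02 over all genes, and Clec9a and Cd209a were the negative ones under each of the 5 scalings tried. Scaling by library totals instead of TMM moved the median of all genes by 0.49 and upper quartile scaling by 0.17 on the log2 scale. The share of treated-higher genes among those with an unadjusted p under 0.05 was 16.5% (442 higher and 2243 lower) with TMM and 27% (448 higher and 1213 lower) with library totals. Only Fscn1 separated the groups without overlap, 1 gene of the 10 against 17.2% of all genes in either direction and 8.87% with treated tumors higher. In bulk tissue, fewer cells of a type and less RNA per cell cannot be told apart.

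**Figure D1:**
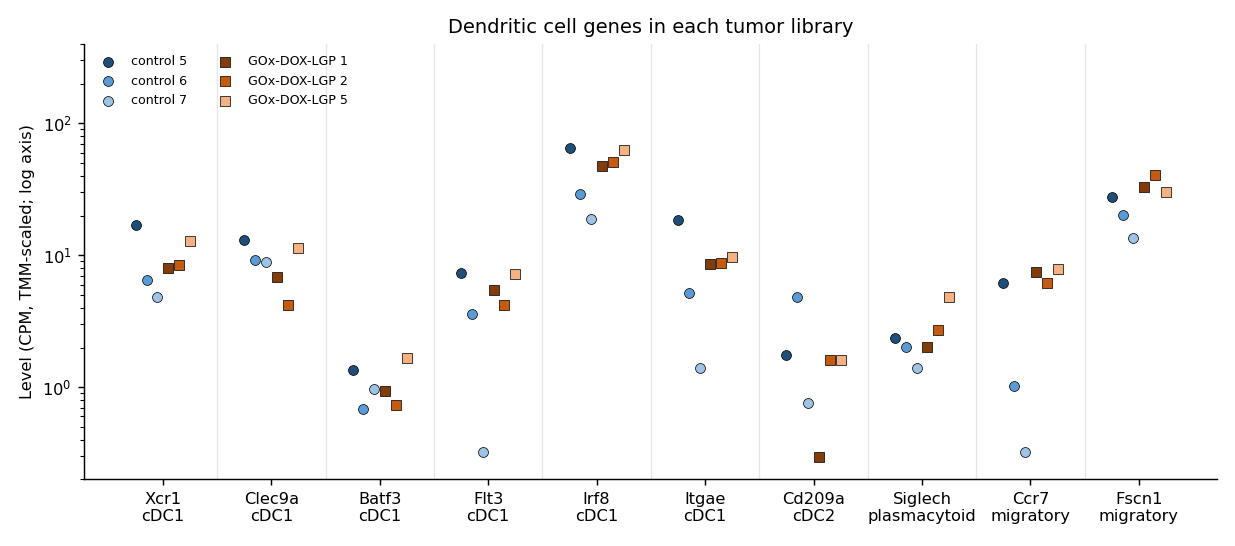
Level of each of the 10 dendritic cell genes (CPM after TMM scaling, log axis) in the 3 control libraries (circles) and the 3 GOx-DOX-LGP libraries (squares), with 1 point per library. Fscn1 is the gene whose 3 treated points all lie above all 3 control points, and control 5 lies at or above the other controls for 9 of the 10 genes, Cd209a being the exception.

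Levels between genes were compared per kilobase of exon. In treated tumors Fscn1 was highest at 11.5 ± 1.84 CPM per kb (SD, n = 3), followed by Irf8 at 7.66 ± 1.17 and Ccr7 at 3.63 ± 0.474 CPM per kb. Clec9a, Xcr1 and Itgae came next at 2.28 ± 1.10, 2.20 ± 0.599 and 1.96 ± 0.135 CPM per kb, and their values overlapped. The values of Fscn1, Irf8 and Ccr7 did not overlap each other in treated tumors, whereas those of Ccr7 and Clec9a did. Siglech, Flt3, Cd209a and Batf3 were lowest, with means between 0.697 and 0.942 CPM per kb that lay within each other's spread. In controls the order per kb was Fscn1, Irf8, Clec9a, Xcr1, Itgae, Cd209a, Ccr7, Batf3, Flt3 and Siglech, so that Ccr7 stood seventh there, at 1.26 ± 1.61 CPM per kb, and behind Fscn1 and Irf8 in treated tumors. Fscn1 is also made by cells other than dendritic cells, tumor cells included, and Irf8 by macrophages and B cells, so a level in bulk tissue does not belong to dendritic cells alone.

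The promoters of Irf8, Xcr1, Clec9a and Fscn1 are shown because Irf8 and Xcr1 followed each other closely across the libraries, Clec9a did not follow Irf8, and Fscn1 was the gene that separated the groups. Each is the 250 bases before the RefSeq transcription start (assembly GRCm38.p6), written 5′ to 3′ on the strand of the gene, with CG dinucleotides in capitals. They lie at chr8:120736108-120736357, + strand for the first of 2 Irf8 starts, at chr9:123862030-123862279, - strand for Xcr1, at chr6:129408612-129408861, + strand for Clec9a and at chr5:142960105-142960354, + strand for Fscn1.
Irf8: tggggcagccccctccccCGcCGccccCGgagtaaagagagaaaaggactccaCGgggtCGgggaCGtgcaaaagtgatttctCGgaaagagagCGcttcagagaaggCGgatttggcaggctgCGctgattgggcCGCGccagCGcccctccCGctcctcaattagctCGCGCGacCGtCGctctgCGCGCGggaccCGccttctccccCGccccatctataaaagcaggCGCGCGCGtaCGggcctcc
Xcr1: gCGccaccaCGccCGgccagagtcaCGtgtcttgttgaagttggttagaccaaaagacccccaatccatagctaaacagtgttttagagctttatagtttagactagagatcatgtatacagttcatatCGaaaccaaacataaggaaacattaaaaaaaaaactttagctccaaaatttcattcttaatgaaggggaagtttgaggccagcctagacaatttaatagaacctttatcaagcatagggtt
Clec9a: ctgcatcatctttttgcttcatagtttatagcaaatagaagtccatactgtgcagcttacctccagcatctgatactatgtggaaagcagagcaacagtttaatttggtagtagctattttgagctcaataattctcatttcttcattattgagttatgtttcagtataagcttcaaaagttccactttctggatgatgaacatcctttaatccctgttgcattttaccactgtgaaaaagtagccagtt
Fscn1: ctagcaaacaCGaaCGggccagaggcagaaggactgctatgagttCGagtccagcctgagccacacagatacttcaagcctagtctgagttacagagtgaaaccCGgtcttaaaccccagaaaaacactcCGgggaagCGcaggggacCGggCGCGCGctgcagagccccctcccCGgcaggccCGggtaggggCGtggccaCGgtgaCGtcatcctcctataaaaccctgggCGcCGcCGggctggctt
These windows hold 29 CG dinucleotides at Irf8, 5 at Xcr1, 0 at Clec9a and 18 at Fscn1, which is more than in 93.2%, 44.4%, 0% and 78.3% of all RefSeq mouse promoters of that length. Promoters were found for 8 of the 10 genes, and not for Itgae and Ccr7. Batf3 had 27 CG dinucleotides, Flt3 13, the second Irf8 start 8, Siglech 2 and Cd209a 1. On either strand, the AP-1 motif TGANTCA, which Batf3 can bind as a dimer with Jun proteins, occurred in 6.75% of the 32851 promoters. The ETS-IRF composite motif (GGAA and GAAA with any 2 bases between them), which Irf8 can bind with a partner, occurred in 2.3%, the interferon response-like motif (GAAA and GAAA with any 2 bases between them) in 2.98% and the NF-kB-like motif (GGG, any 2 bases, TT, any base, CC) in 4.11%. The ETS-IRF and interferon response-like motifs can overlap each other. None of the 4 occurred in the 9 promoters of these genes (0 of 9), so these letters are not in these windows.

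None of the 6 cDC1 genes passed the test, and 5 of the 6 had a positive fitted change. Xcr1 (ENSMUSG00000060509, chr9:123852315-123862029, - strand) encodes the chemokine receptor that is most specific to cDC1. Controls 5, 6 and 7 had 16.9, 6.53 and 4.84 CPM of it, against 8.06, 8.43 and 12.9 CPM in treated tumors 1, 2 and 5. Control 5 was thus the highest library, all 3 treated tumors lay above controls 6 and 7, and the means of 9.44 ± 6.55 and 9.78 ± 2.67 CPM (SD, n = 3) gave a log2 fold change of 0.04 (SE 0.53, edgeR adjusted p = 0.967).

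Clec9a (ENSMUSG00000046080, chr6:129408862-129424763, + strand), the receptor for actin exposed by dead cells, had a different order of libraries. Controls 5, 6 and 7 had 13.1, 9.24 and 8.82 CPM, against 6.87, 4.21 and 11.4 CPM in treated tumors 1, 2 and 5. Treated tumors 1 and 2 lay below every control while treated tumor 5 lay between control 5 and control 6, for means of 10.4 ± 2.37 and 7.49 ± 3.63 CPM (SD, n = 3) and a log2 fold change of -0.47 (SE 0.42, edgeR adjusted p = 0.540). Clec9a was the only cDC1 gene of the 6 with a negative fitted change. In GENCODE M21, 184 exonic bases of Clec9a (5.59%) also belong to exons of Clec1b on the same strand, and reads there could be split between the genes. Clec1b was at 1.93, 18.1 and 15.5 CPM in the controls and at 1.73, 0.931 and 2.03 CPM in the treated tumors, so it was higher in controls 6 and 7, and its part in the Clec9a level was not tested.

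Batf3 (ENSMUSG00000026630, chr1:191097847-191108945, + strand) and Irf8 (ENSMUSG00000041515, chr8:120736358-120756694, + strand) are the transcription factors on which cDC1 depend. Batf3 was near the lower end of detection at 1.36, 0.678 and 0.969 CPM in the controls and 0.939, 0.735 and 1.66 CPM in the treated tumors, and the groups overlapped (log2 fold change 0.13, SE 0.48, edgeR adjusted p = 0.884). Control 6 held only 8 Batf3 reads and control 7 only 9, with exact 95% Poisson intervals of 0.293 to 1.34 and 0.443 to 1.84 CPM that cover counting error only. Irf8 was well measured, at 64.6, 29.0 and 18.8 CPM in the controls and 47.8, 50.9 and 63.4 CPM in the treated tumors. Its treated values again lay above controls 6 and 7 and below control 5 (means 37.5 ± 24.0 and 54.0 ± 8.24 CPM (SD, n = 3), log2 fold change 0.53, SE 0.47, edgeR adjusted p = 0.539).

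Flt3 (ENSMUSG00000042817, chr5:147330741-147400489, - strand), the receptor for the growth factor that maintains dendritic cells, was at 7.28, 3.56 and 0.323 CPM in the controls and 5.49, 4.16 and 7.23 CPM in the treated tumors. The value in control 7 rests on 3 reads, with an exact 95% Poisson interval of 0.0666 to 0.943 CPM, which does not reach the level of any other library. The fitted log2 fold change of Flt3 was 0.57 (SE 0.89, edgeR adjusted p = 0.712). Itgae (ENSMUSG00000005947, chr11:73090583-73147446, + strand) encodes the integrin chain CD103, which some tissue-resident T cells also carry. Its controls ranged from 18.6 CPM in control 5 over 5.17 in control 6 to 1.40 in control 7, while the treated tumors were alike at 8.55, 8.67 and 9.68 CPM (log2 fold change 0.08, SE 0.83, edgeR adjusted p = 0.961).

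Cd209a (ENSMUSG00000031494, chr8:3743397-3748984, - strand), a lectin of the DC-SIGN family found on cDC2 and monocyte-derived dendritic cells, had the most negative fitted change. It was at 1.75, 4.83 and 0.753 CPM in the controls and at 0.297, 1.62 and 1.61 CPM in the treated tumors, from 40, 57 and 7 reads and from 6, 33 and 31 reads. The lowest library was treated tumor 1 and the highest control 6, but control 7 lay below treated tumors 2 and 5, so the groups overlapped (log2 fold change -1.06, SE 0.87, edgeR adjusted p = 0.514). Siglech (ENSMUSG00000051504, chr7:55768178-55778925, + strand), a Siglec family receptor of plasmacytoid dendritic cells, was at 2.37, 2.04 and 1.40 CPM in the controls and 2.03, 2.69 and 4.84 CPM in the treated tumors. Treated tumors 2 and 5 were above all controls and treated tumor 1 was level with control 6 (log2 fold change 0.71, SE 0.44, edgeR adjusted p = 0.419).

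The migratory genes had the largest positive fitted changes of the 10. Ccr7 (ENSMUSG00000037944, chr11:99144196-99155077, - strand), which guides mature dendritic cells as well as naive T cells, was at 6.14, 1.02 and 0.323 CPM in the controls and at 7.51, 6.12 and 7.91 CPM in the treated tumors. These values came from 140, 12 and 3 reads and from 152, 125 and 152 reads. Controls 6 and 7 were far below every treated tumor, whereas control 5 was level with treated tumor 2, and the fitted log2 fold change was 1.48 (SE 0.94, edgeR adjusted p = 0.424). Fscn1 (ENSMUSG00000029581, chr5:142960343-142973185, + strand) was at 27.7, 20.4 and 13.5 CPM in the controls and at 32.9, 40.8 and 30.1 CPM in the treated tumors. All 3 treated tumors lay above all 3 controls, with means of 34.6 ± 5.55 and 20.5 ± 7.14 CPM (SD, n = 3), which gave the smallest p that an exact two-sided permutation test allows with 3 libraries a group, 0.1. The fitted log2 fold change of Fscn1 was 0.75 (SE 0.31, unadjusted p = 0.051, edgeR adjusted p = 0.287), and DESeq2 gave an unadjusted p of 0.0356 and an adjusted p of 0.173.

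**Figure D2:**
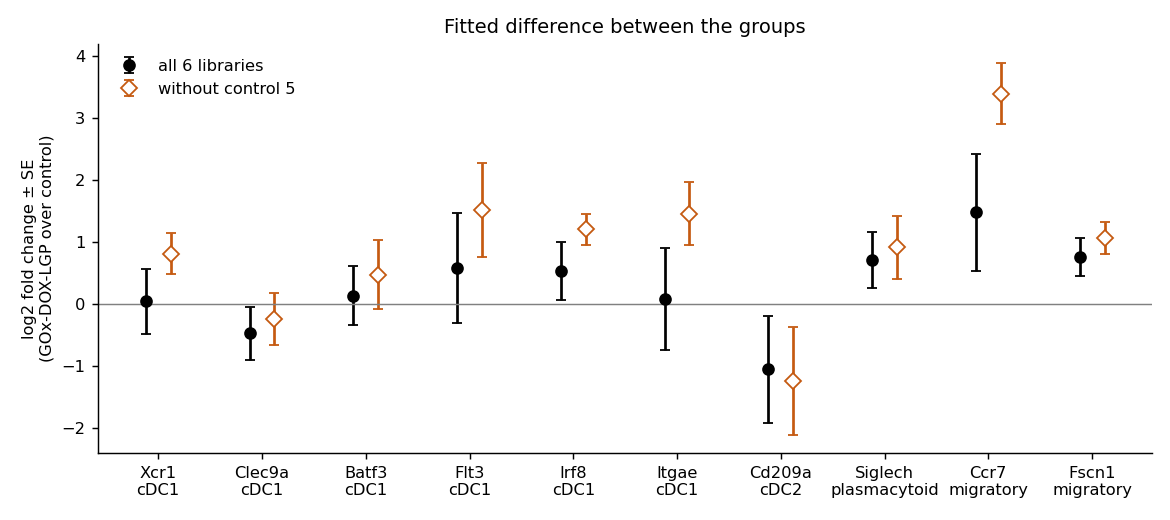
Fitted log2 fold change of GOx-DOX-LGP over control tumors for each gene (edgeR, bars are ± SE), with all 6 libraries (filled circles) and without control 5 (open diamonds). With all libraries no gene passed the adjusted threshold, and without control 5 Ccr7 moves from 1.48 to 3.39, Irf8 from 0.53 to 1.20, Itgae from 0.08 to 1.45 and Fscn1 from 0.75 to 1.06.

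Leaving out control 5 changed these calls. With 2 controls against 3 treated tumors, 4 of the 10 genes had an edgeR adjusted p under 0.05, all with treated tumors higher, compared with 47.7% of the 16249 genes then kept and 22.2% with treated tumors higher. These were Ccr7 (log2 fold change 3.39, SE 0.50, edgeR adjusted p = 0.00162), Irf8 (1.20, SE 0.25, edgeR adjusted p = 0.00725), Fscn1 (1.06, SE 0.26, edgeR adjusted p = 0.0131) and Itgae (1.45, SE 0.50, edgeR adjusted p = 0.0487). The groups then did not overlap for 7 genes with treated tumors higher, namely Xcr1, Flt3, Irf8, Itgae, Siglech, Ccr7 and Fscn1, against 36.8% of all genes. Siglech was among them only after scaling without control 5, since control 6 and treated tumor 1 were nearly level at 2.04 and 2.03 CPM. Xcr1 (0.81, SE 0.33, edgeR adjusted p = 0.0793) and Flt3 (1.52, SE 0.76, edgeR adjusted p = 0.137) did not pass the threshold in spite of this. Clec9a at -0.24, Cd209a at -1.24, Batf3 at 0.47 and Siglech at 0.91 on the log2 scale had edgeR adjusted p-values from 0.172 to 0.659. The median log2 fold change of the 10 genes was 0.99 without control 5, against 0.08 over all genes. With the hepatocyte level as a covariate and all 6 libraries, 0 of the 10 had an unadjusted p under 0.05 in edgeR, compared with 7.21% of all genes, and their median was -0.03 against 0.00 over all genes. Leaving out any other library left 0 of the 10 genes with an adjusted p under 0.05, as well as 0 of all genes kept.

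The same genes were then set against the leukocytes of each library, as the log2 CPM of the gene minus the mean log2 CPM of 16 leukocyte genes (Ptprc, which encodes CD45, and 15 others). The controls had a mean of 5.67 (control 5), 5.12 (control 6) and 4.45 (control 7) and the treated tumors of 5.72, 6.16 and 6.08, so every treated library lay above every control. The scaling factor of a library largely cancels on this scale, and it enters through the prior count for genes with few reads. Relative to leukocyte genes Clec9a was at -1.95, -1.90 and -1.29 in the controls and at -2.92, -4.04 and -2.56 in the treated tumors. All 3 treated tumors lay below all 3 controls, including control 5, with a difference of -1.46 between the means (exact two-sided permutation p = 0.1, the smallest possible here). Cd209a was at -4.77, -2.82 and -4.66 in the controls and at -7.00, -5.37 and -5.29 in the treated tumors, again without overlap (difference -1.81, exact two-sided permutation p = 0.1). These 2 of the 10 genes compare with 36% of all genes that were lower without overlap on this scale, so such a separation was common. Without control 5 the same 2 genes were lower without overlap, against 67.4% of all genes, and Ccr7 was higher, against 8.9%.

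The other 8 genes overlapped between the groups relative to leukocyte genes. Xcr1 and Batf3 had differences of -0.68 and -0.79 (exact permutation p = 0.2 for each), and Siglech, Irf8, Itgae and Fscn1 had differences of -0.28, -0.20, -0.13 and -0.10 (exact permutation p from 0.4 to 0.8). Flt3 and Ccr7 had positive differences of 0.39 and 1.41 (exact permutation p = 0.8 and p = 0.3). Fscn1, which separated the groups in CPM, was at -0.87, -0.77 and -0.69 in the controls and at -0.68, -0.80 and -1.17 in the treated tumors on this scale, and the groups overlapped. With Ptprc alone in place of the list, Clec9a (difference -1.20) and Cd209a (-1.55) were again lower without overlap, against 5.65% of all genes. Ccr7 was then higher without overlap (difference 1.67), against 3.26% of all genes. Each of these 3 had an exact permutation p of 0.1.

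**Figure D3:**
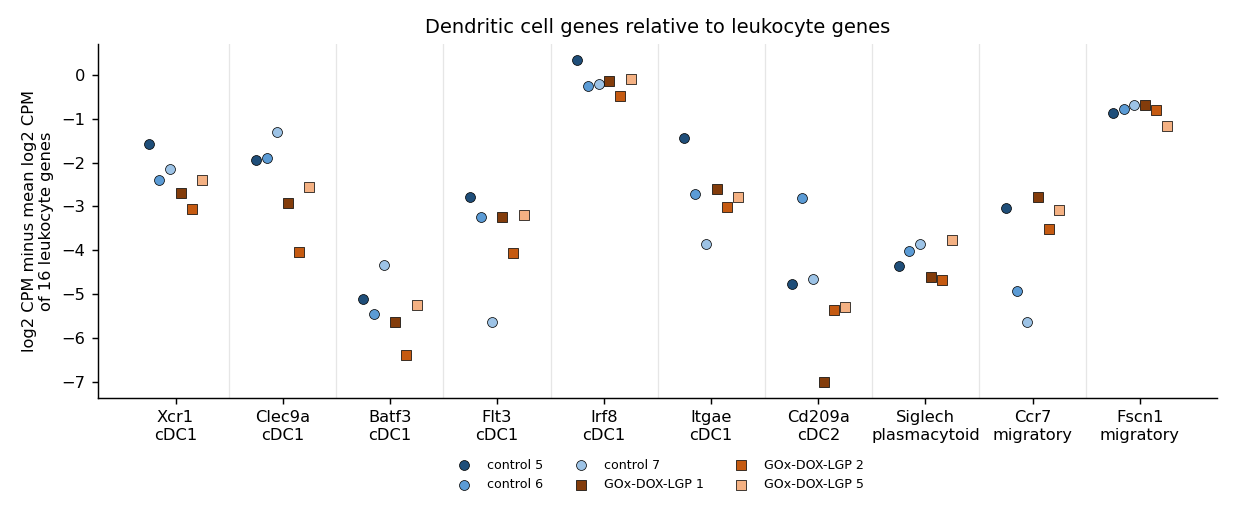
Log2 CPM of each dendritic cell gene minus the mean log2 CPM of 16 leukocyte genes of the same library, with 1 point for each of the 3 control (circles) and 3 GOx-DOX-LGP (squares) libraries. For Clec9a and Cd209a all treated points lie below all control points, while Fscn1 lies between -1.17 and -0.68 in all 6 libraries.

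Ccr7 marks dendritic cells that have matured, but T cells can also express it. Its level was set against that of each cDC1 gene in the same library, a comparison chosen after the values had been seen. The mean log2 CPM of T cell genes was higher in every treated library than in every control. The part of T cells in these ratios was not tested, nor was a shift toward mature dendritic cells. Controls 5, 6 and 7 had a Ccr7 to Clec9a ratio of 0.468, 0.110 and 0.0366, against 1.09, 1.45 and 0.694 in treated tumors 1, 2 and 5. The ratio of Ccr7 to Xcr1 was 0.363, 0.156 and 0.0667 in the controls and 0.933, 0.727 and 0.615 in the treated tumors. In both, control 5 was the highest control and still lay below the lowest treated tumor. Ccr7 was higher in every treated library than in every control relative to each of the 6 cDC1 genes (exact permutation p = 0.1 for each), with differences in mean log2 ratio from 1.02 for Flt3 to 2.87 for Clec9a. The comparison shares the Ccr7 values among the 6 ratios, and it rests on 12 and 3 Ccr7 reads in controls 6 and 7. Of all 15373 other genes, 40.7% had a Ccr7 ratio that was higher in every treated library. The Fscn1 ratio separated the groups for 1 of the 6 cDC1 genes, Clec9a (2.11, 2.20 and 1.52 in the controls, 4.78, 9.69 and 2.64 in the treated tumors), against 35.3% of all other genes. Relative to Flt3, Fscn1 was highest in control 7 at 41.7, where Flt3 had 3 reads.

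**Figure D4:**
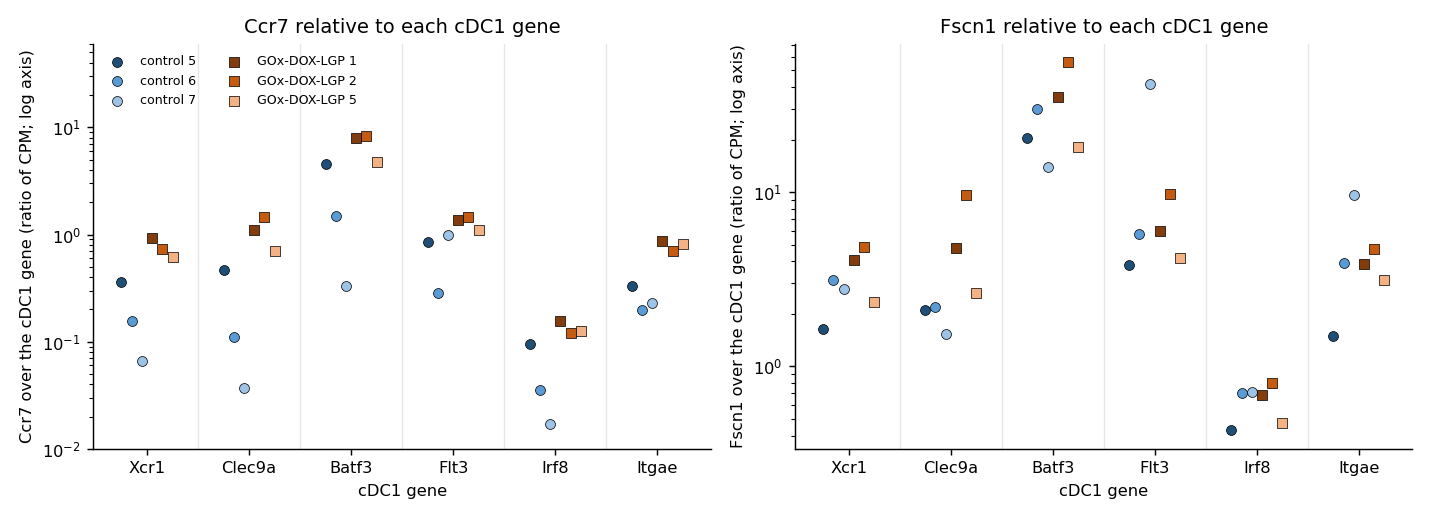
Ratio of Ccr7 (left) and of Fscn1 (right) to each of the 6 cDC1 genes in the same library (ratio of CPM, log axis), with 1 point per library. On the left the 3 treated points (squares) lie above the 3 control points (circles) for all 6 genes, and on the right they do so for Clec9a, where they lie at 4.78, 9.69 and 2.64.

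Across the 6 libraries, several of these genes followed each other. The correlation of their log2 CPM (Pearson's r) was 0.97 between Irf8 and Ccr7, 0.95 between Irf8 and Itgae and between Flt3 and Itgae, 0.93 between Ccr7 and Fscn1 and 0.91 between Xcr1 and Irf8. These are descriptions over 6 libraries, which differ in hepatocyte marker RNA. Within a library all genes share its depth, scaling factor and mix of cells. Clec9a stood apart, with r of 0.09 to Irf8, 0.11 to Flt3, 0.14 to Itgae, -0.10 to Ccr7 and -0.43 to Fscn1, and its highest values were 0.68 to Batf3 and 0.44 to Xcr1. Batf3 also followed the others less closely, with r of 0.09 to Fscn1, 0.31 to Flt3, 0.38 to Itgae and 0.42 to Ccr7. Its r was 0.53 to Irf8, 0.58 to Siglech and 0.70 to Xcr1. Cd209a had r between -0.18 and 0.25 to the other 9 genes. The share of other gene pairs with such r was not computed. The genes outside the 10 whose pattern was most like the mean of the standardised cDC1 genes were Gm10634 (r = 0.993), H2-Ob (0.991), Trib3 (0.985), Btla (0.985) and Ndor1 (0.983), over 6 libraries. H2-Ob, for example, was at 15.7, 6.11 and 3.44 CPM in the controls and at 8.40, 6.61 and 12.1 CPM in the treated tumors, with control 5 highest and control 7 lowest as for Xcr1.

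Further dendritic cell genes were examined as lists. Of 12 other cDC1 genes kept, 0 were higher and 1 lower at an unadjusted p under 0.05, with a median log2 fold change of 0.22, and 5 were higher and 1 lower at an adjusted p under 0.05 without control 5 (edgeR). The lower one was Id2, a helix-loop-helix factor needed by cDC1 but also expressed in liver, at 94.7, 416 and 475 CPM in the controls and 104, 128 and 118 CPM in the treated tumors. Among 8 other cDC2 genes the median was 0.47 with 1 higher, Tnip3, an inhibitor of NF-kB signalling, at 0.526, 1.44 and 0.430 CPM in the controls and 2.17, 3.48 and 2.71 CPM in the treated tumors. Among 9 other plasmacytoid genes the median was 0.31 with 1 higher, Irf7, the interferon response factor that many cell types induce, at 23.0, 39.9 and 41.2 CPM in the controls and 73.1, 89.6 and 44.5 CPM in the treated tumors. With control 5 included, 2 of the 8 cDC2 genes (Tnip3 and Klf4) and 1 of the 9 plasmacytoid genes (Irf7) were higher without overlap. Over all genes the share was 8.87%. Klf4 was at 125, 44.4 and 10.8 CPM in the controls and 145, 202 and 145 CPM in the treated tumors. Tnip3, Irf7 and Klf4 missed the adjusted threshold (edgeR adjusted p = 0.247, 0.252 and 0.376). Without control 5, 1 of the 8 cDC2 genes (Klf4) and 1 of the 9 plasmacytoid genes (Runx2) were higher at an edgeR adjusted p under 0.05. Neither list had a lower one. Over all genes, 2.87% were higher and 14.6% lower at an unadjusted p under 0.05 with all libraries. Without control 5, 22.2% of all genes were higher at an edgeR adjusted p under 0.05.

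Genes of dendritic cell maturation had a median of 1.04 over 21 genes kept, of which 18 had a positive fitted change. Several lists of other immune cells had medians of a similar size, 1.27 for T cells, 1.02 for natural killer cells, 1.02 for macrophages, 1.67 for neutrophils and 0.86 for leukocytes in general. The medians for B cells and Kupffer cells were not, at 0.12 and -1.99. Of the 21 maturation genes, 1 was higher and 2 were lower at an unadjusted p under 0.05, against 2.87% and 14.6% of all genes. Without overlap, 6 of them were higher, against 8.87% of all genes, and 2 were lower. In either direction this held for 17.2% of all genes. Samsn1, an adaptor protein of immune cells, was at 12.8, 6.61 and 3.12 CPM in the controls and 17.3, 21.5 and 24.2 CPM in the treated tumors (log2 fold change 1.47, SE 0.51, edgeR adjusted p = 0.247). Socs2, a suppressor of cytokine signalling, had the opposite order at 28.1, 78.6 and 82.8 CPM in the controls and 27.7, 19.7 and 22.4 CPM in the treated tumors (-1.44, SE 0.44, edgeR adjusted p = 0.247). Il15ra, the receptor chain that presents interleukin 15, was at 12.5, 69.4 and 84.6 CPM in the controls and 11.1 to 15.4 CPM in the treated tumors. Both Socs2 and Il15ra are also expressed in liver, and both were high in controls 6 and 7, where hepatocyte markers were high. The list had a mean log2 CPM of 4.01 in control 5, 2.69 and 1.81 in controls 6 and 7, and between 3.97 and 4.09 in the treated tumors, so control 5 was level with the treated tumors. Without control 5, 16 of the 21 were higher and 2 lower at an edgeR adjusted p under 0.05, in a fit that called 47.7% of all genes and 22.2% with treated tumors higher. Of 7 genes shared by conventional dendritic cells the median was -0.30. Dpp4 and Kmo were lower at an unadjusted p under 0.05, 2 of the 7 against 14.6% of all genes. Both are also made by hepatocytes, and they lay at 196 and 299 CPM and at 166 and 290 CPM in controls 6 and 7 but between 4.63 and 9.64 CPM in the other 4 libraries. Zbtb46 was lower without overlap (edgeR adjusted p = 0.286), 1 gene of the 7, against 17.2% of all genes without overlap in either direction. It was at 6.84, 10.8 and 14.9 CPM in the controls and 6.23, 5.49 and 6.40 CPM in the treated tumors. Zbtb46 was thus highest in controls 6 and 7, where markers of hepatocytes and of sinusoidal endothelium were also highest. The part of other cells in its level was not tested. Without control 5 the median of these 7 genes was 1.03. Of the 7, 4 were then higher and 3 lower at an edgeR adjusted p under 0.05. That fit called 47.7% of all genes, and 22.2% with treated tumors higher.

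Ligands and growth factors of the 10 genes were also measured, and those named here besides Ccl5 and Ccl21a were picked as partners of the receptors. Flt3l, the ligand of Flt3, was at 5.53, 9.16 and 6.13 CPM in the controls and 5.04, 4.07 and 9.16 CPM in the treated tumors, and the groups overlapped (log2 fold change -0.19, SE 0.41, edgeR adjusted p = 0.798). Xcl1, the ligand of Xcr1, was at 0.790 and 0.254 CPM in controls 5 and 6, had 0 reads in control 7, which allows up to 0.323 CPM, and was at 0.297, 0.637 and 1.04 CPM in the treated tumors. Ccl19, a ligand of Ccr7, did not pass the filter, with at most 3 reads in a library. Ccl21a, the other ligand of Ccr7, was at 1.40, 3.56 and 0.969 CPM in the controls and 0.346, 0.784 and 0.104 CPM in the treated tumors, lower without overlap (log2 fold change -2.24, SE 0.82, edgeR adjusted p = 0.254). Its level is uncertain, since near-identical copies of the gene can share its reads. Ccl21a had 32, 42 and 9 reads in the controls and 7, 16 and 2 reads in the treated tumors. The fitted changes of Ccr7 and Ccl21a had opposite signs, but neither passed the adjusted threshold (edgeR adjusted p = 0.424 and 0.254). A link between them was not tested. Ccl5, a chemokine of T and natural killer cells that recruits cDC1, was at 7.06, 11.9 and 8.07 CPM in the controls and 12.2, 17.2 and 21.7 CPM in the treated tumors, without overlap (0.92, SE 0.33, edgeR adjusted p = 0.252). Of the 12 ligand and growth factor genes kept, 1 was higher and 1 lower at an unadjusted p under 0.05, against 2.87% and 14.6% of all genes. Without overlap, 4 of the 12 were higher, against 8.87% of all genes, and 1 was lower. In either direction this held for 17.2% of all genes. Without control 5, 7 were higher and 1 lower at an edgeR adjusted p under 0.05, and 22.2% of all genes were higher.

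Markers of other cells moved alongside. T cell genes had a mean log2 CPM of 3.09, 2.52 and 1.66 in the controls and 3.48, 3.62 and 4.10 in the treated tumors, with no gene at 0. Of 15, 9 were higher at an unadjusted p under 0.05, against 2.87% of all genes, and 0 passed the adjusted threshold. Without control 5, 12 of the 15 were higher at an edgeR adjusted p under 0.05, against 22.2% of all genes. Cd3e, a chain of the T cell receptor complex, was at 11.3, 7.97 and 5.49 CPM in the controls and 17.7, 20.2 and 29.5 CPM in the treated tumors. T cells can also express Ccr7 and Itgae. Of 10 macrophage genes 2 were higher at an unadjusted p under 0.05, and Adgre1, which was not, was at 40.5, 44.0 and 28.9 CPM in the controls and 27.8, 106 and 50.8 CPM in the treated tumors. Clec4f, the Kupffer cell lectin, was at 8.16 CPM in control 5, 96.8 CPM in control 6 and 101 CPM in control 7, against 3.33 to 12.5 CPM in the treated tumors. For the B cell list, 6 of 10 genes were kept and 0 of the 6 passed an unadjusted p under 0.05, with Cd79a between 0.572 and 2.63 CPM. The summed level of the 6 cDC1 genes was 122, 54.2 and 35.2 CPM in the controls and 77.7, 77.1 and 106 CPM in the treated tumors. Irf8, which other cells also make, was the largest part, at 64.6, 29.0 and 18.8 CPM and at 47.8, 50.9 and 63.4 CPM. The order of the sum among the controls was the reverse of that of hepatocyte genes. Among the treated tumors it was not, since treated tumor 2 was lowest in both. With the leukocyte mean as a covariate in edgeR, the median log2 fold change of the 10 genes was -0.65 against -0.09 over all genes. That fit gave an adjusted p of 1 for every gene tested, so it called 0% of all genes and 0 of the 10. Beyond these values, the part of other cells in the levels of the 10 genes was not tested.

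**Figure D5:**
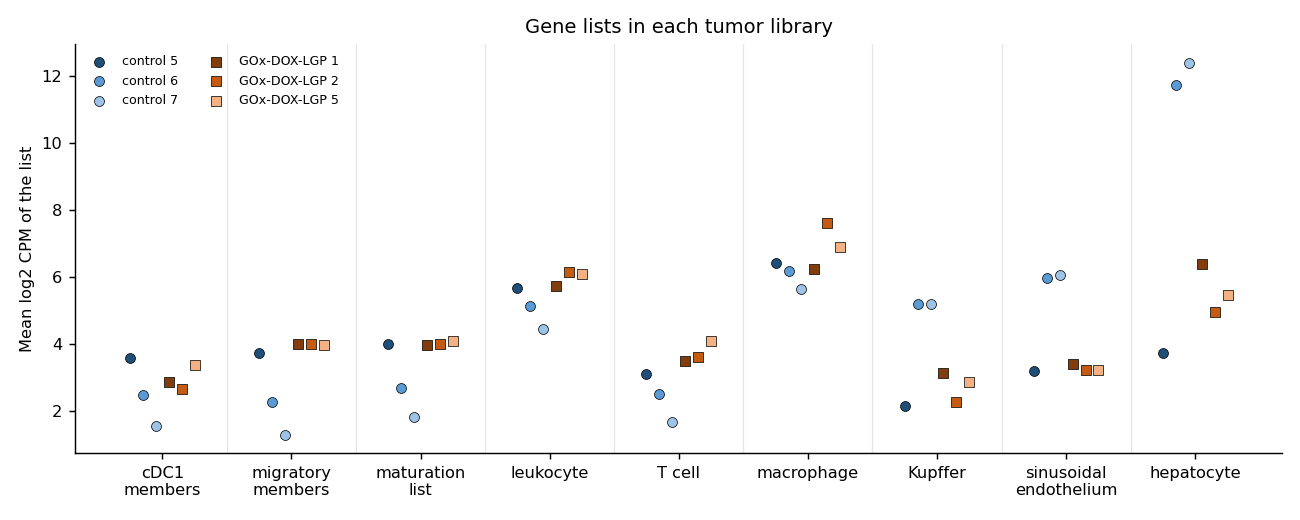
Mean log2 CPM of gene lists in each library, for the cDC1 and migratory genes, the maturation list and markers of other cells, with circles for the 3 controls and squares for the 3 GOx-DOX-LGP tumors. Controls 6 and 7 are highest for hepatocyte genes (11.74 and 12.41) and lowest for the migratory genes (2.27 and 1.29), while control 5 (3.73 and 3.72) lies closer to the treated tumors for both.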

How the data were processed

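RNA of 6 tumors was sequenced as bulk libraries. The authors deposited raw counts per gene for 55536 genes, which were used here, and a signal table that holds these counts after division by library size factors. Within a library the ratio of raw to divided counts was constant for counts of at least 20 (deviation at most 4.91e-08%). The submitters' processing notes name Trimmomatic 0.38, HISAT2 2.1.0 and featureCounts 2.0.0, whereas the methods name TopHat and HTSeq, and which of them made the counts, the genome build and the strand setting are not given in the sources used here. Gene positions are those of GENCODE M21 (GRCm38), which holds 55450 of the gene identifiers, and promoter sequences those of RefSeq (GRCm38.p6). Groups follow the labels.

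Counts were analysed in R 4.3.3 with edgeR 4.0.16 (filterByExpr, TMM, quasi-likelihood test with the 6 libraries and no covariate, Benjamini-Hochberg adjustment, threshold 0.05), after tests on simulated data. The estimated standard error is the fold change divided by the root of the F statistic. Log2 CPM used a prior count of 2. Library totals were 15529940 to 18401178, and 3 counts corresponded to 0.132 to 0.323 CPM. Poisson intervals cover counting error only. Exact permutation tests were two-sided and cannot go below 0.1. Alternatives used DESeq2 1.42.0, limma 3.58.1, other scalings, filters and covariates, and leaving out each library. Figures were drawn with matplotlib 3.10.9.

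The 10 genes and all lists were chosen with earlier results of these data known. Named were all 10 genes, in each further dendritic cell list the genes with an unadjusted p under 0.05, the 5 genes most like the cDC1 genes, and Alb, Ptprc, Cd79a, Cd3e, Adgre1 and Clec4f. Clec1b, Zbtb46, Klf4, Runx2, Flt3l, Xcl1, Ccl19 and the Ccr7 and Fscn1 ratios were chosen after values had been seen. Reads could be shared between near-identical stretches, which made up 1.63% of Xcr1, 4.02% of Clec9a, 0.389% of Siglech and 0.049% of Flt3 (50-base stretches found in another gene).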

Additional observations from a re-analysis of the deposited data

How the results depend on the processing

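With all 6 libraries, 0 of the 10 genes had an unadjusted p under 0.05 by edgeR, against 17.5% of all genes. The count was 1 with DESeq2, against 22.6% of the genes it tested, and 1 with the leukocyte level as covariate, against 112 of 15374 genes. It was 1 with median-ratio, upper quartile or the deposited size factors, against 2705, 2457 and 2659 of 15374 genes. It was also 1 without a filter, 5 in limma voom with quality weights, and 0 to 5 when each library was left out. Without control 5 it was 5, against 9026 of 16249 genes. With any other library left out it was 0, against 696 to 1316 genes. Adjusted calls numbered 4 in limma voom, namely Irf8 (0.84), Cd209a (-2.93), Ccr7 (2.91) and Fscn1 (0.76), against 60.2% of all genes. They numbered 0 to 4 when each library was left out, with 4 only without control 5, against 47.7% of the genes then kept. Genes without overlap numbered 2 without a filter and 1 to 7 on leaving out a library. With the filter and all 6 libraries it was 1, against 17.2% of all genes. The 7 were without control 5, all with treated tumors higher, against 36.8% of all genes. Where no share is given here, the share over all genes was not computed. The median log2 fold change was -0.65 with the leukocyte covariate and 0.07 to 0.99 on leaving out a library. Relative to leukocyte genes, 2 to 5 genes did not overlap on leaving out a library, with 4 without control 6 and 5 without GOx-DOX-LGP 5. With all 6 libraries it was 2, both lower, against 36% of all genes. Without control 5 it was 3, with 2 lower, against 67.4% of all genes, and 1 higher, against 8.9%. The 4 and the 5 have no such share beside them, and no result about these genes is drawn from them.

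Of 160 recomputed fold changes of single genes, 16 changed sign, all with adjusted p above 0.05, 8 became significant and 136 kept both. With the hepatocyte covariate Xcr1, Batf3 and Itgae were at -0.44, -0.11 and -0.49. With the leukocyte covariate Xcr1, Batf3, Flt3, Irf8, Itgae and Ccr7 were at -1.02, -0.23, -1.13, -0.49, -1.54 and -0.10. On leaving out a library Xcr1 ranged from -0.27 to 0.81, Batf3 from -0.23 to 0.47 and Itgae from -0.42 to 1.45. The cause of these changes was not tested. Both covariates differ between the groups, and the fit with the leukocyte covariate returned an adjusted p of 1 for every gene tested. Clec9a, Cd209a, Fscn1 and Siglech kept their sign under every alternative that was run. No paired analysis was possible because the groups share only 1 replicate number. Depth limited Batf3, Flt3, Cd209a and Ccr7, which had under 10 reads in at least 1 library.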
